A study of Mus musculus with 6 samples.

Results

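RNA sequencing was carried out in bEND.3 cells after knockdown of the long non-coding RNA Gm39822, and the genes that fell most among those expressed in the control cells were examined. A gene was included where it had at least 1 CPM (the count scaled by the total of its sample, per 1000000 counts) in both negative control samples and a GapmeR mean at least 3 times lower than the control mean. Of 49315 genes in the table, 11956 had at least 1 CPM in both controls, and 109 of these met the rule (0.912%). The rule used the measured values of all 6 samples, so the levels below describe the 109 genes and carry no test. The 4 GapmeR samples are labelled Gm39822 knockdown and the 2 Negative Control samples are labelled control. All samples are of 1 line, bEND.3, which was made from endothelium of the mouse brain by transformation with a polyomavirus oncogene. An antisense LNA GapmeR against Gm39822 or a negative control antisense LNA GapmeR was used at 100 nM, delivered by the same lipid reagent in both groups. Nothing in the labels says that samples of a group came from separate cultures, so the spread between them may be technical.

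A GapmeR is a short antisense oligonucleotide whose DNA core directs RNase H to cut the RNA it pairs with. Endothelial cells line blood vessels and answer interferons and other inflammatory signals with antiviral proteins, chemokines, MHC class I molecules and adhesion molecules for leukocytes. Interferons act through STAT and IRF transcription factors, which bind short motifs near the start sites of their target genes. Many interferon-induced genes lie in tandem families of close paralogs, such as the PYHIN genes, which encode sensors of DNA, and the Ifit genes, which encode proteins that bind foreign RNA.

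The total count was between 29261988 and 37117934 in the 6 samples. All 13 endothelial markers had at least 1 CPM in both groups, and their summed level was 9723 to 10999 CPM in the GapmeR samples and 10413 and 10898 CPM in the controls, while 8 of the 13 were lower and 2 higher in edgeR (adjusted p under 0.05). The 9 pericyte and smooth muscle markers summed to 8.77 to 13.4 CPM in the GapmeR samples and to 1.90 and 2.05 CPM in the controls, and 2 of the 6 tested were higher and none lower. The 15 macrophage markers summed to 231 to 435 CPM in the GapmeR samples and to 169 and 175 CPM in the controls, with 15 and 10 of them at 1 CPM or more. In edgeR 3 of the 15 tested were higher and none lower. The 7 epithelial and the 7 T and B lymphocyte markers summed to under 2 CPM in every sample, with Cd3g and Ms4a1 at 0 throughout. The epithelial sum was 1.24 to 1.51 CPM in the GapmeR samples and 0.615 and 0.730 CPM in the controls. In edgeR 2 of the 4 epithelial markers tested and the 1 lymphocyte marker tested were higher, and none was lower. The 6 fibroblast markers summed to 94.3 CPM in GapmeR 3 and to 14.9 to 23.8 CPM in the other samples. The part of these differences in the levels of the 109 genes was not tested.

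The 109 genes together took 3826 and 4348 CPM in the controls and 971, 791, 933 and 771 CPM in GapmeR samples 1 to 4. Their control means ran from 1.08 to 916 CPM with a median of 8.34 CPM, and 24 of them were under 2 CPM while 9 were at 100 CPM or more. The median fold was 4.25, 12 genes had a ratio of GapmeR to control mean of at most 0.1, and 67 had a ratio over 0.2. All 109 had every GapmeR sample below both controls, which was so for 22.8% of the 11956 genes, and in 65 of them every GapmeR sample was at least 3 times lower than the lower control. Between the GapmeR samples the coefficient of variation of the 109 genes had a median of 23.7%, beside 7.68% over the 11956 genes, whose median GapmeR mean was 30.5 CPM against 1.73 CPM for the members, so that counting error differs between the 2 sets. Control 2 was above control 1 for 83 of the 109 genes, with a median ratio of 1.12, beside 0.999 over the 11956 genes. At the edge of the rule, St3gal5, Gm11382 and Gm29865 were just inside with ratios of 0.328, 0.329 and 0.331, and Gm7609, Hist1h1c and Efna5 were just outside with ratios of 0.335, 0.341 and 0.342.

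**Figure D1:**
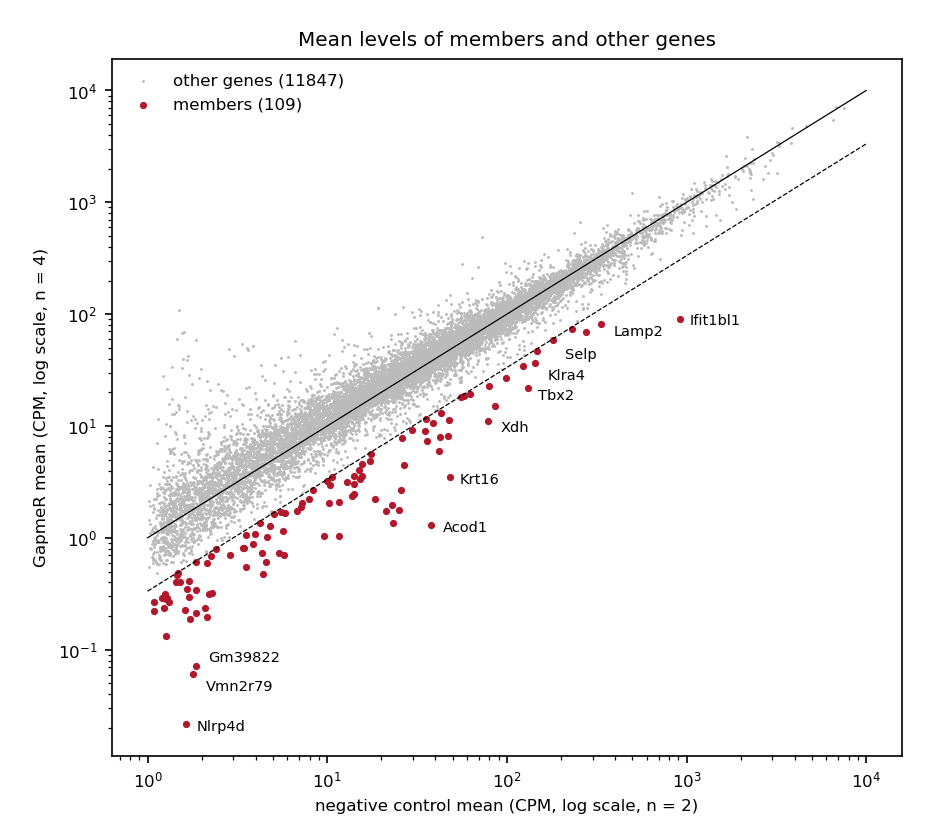
Mean level in the 4 GapmeR samples (y axis, CPM, log scale) against the mean in the 2 negative controls (x axis, CPM, log scale) for the 11956 genes with at least 1 CPM in both controls. The 109 genes that met the rule (red) lie under the dashed line, which marks a level 3 times lower, the solid line marks equal levels, and Ifit1bl1, at 916 CPM in the controls, is the member with the highest control level.

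Gm39822, the target, is a long non-coding RNA gene at chr11:51897312-51909624 (mm10). Reads of it numbered 61 and 56 in the controls but 2, 1, 4 and 2 in GapmeR samples 1 to 4. In CPM these are means of 1.86 ± 0.318 (SD, n = 2) for the controls and 0.0710 ± 0.0441 (SD, n = 4) for the GapmeR samples. Over all samples the pooled fold was 26.9, with a 95% interval of 13.7 to 60.3 that covers counting error only. Acod1, described below, and Nlrp4d and Vmn2r79, which were chosen after their values were seen, also had ratios under that of Gm39822 (0.0382). Nlrp4d, annotated as a pseudogene of the NOD-like receptor family, had 46 and 59 counts in the controls against 0, 2, 0 and 1 counts with the GapmeR, a pooled fold of 72.5 (95% counting interval 24.1 to 357). Vmn2r79, a vomeronasal receptor gene, had 4, 2, 1 and 1 counts against 55 and 59, a pooled fold of 29.5 (14.5 to 70.0), and these intervals overlap that of Gm39822.

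Genes linked to interferon and immune responses formed the largest named group, with 18 of the 109. The roles were assigned by hand after the values were seen. The macrophage markers, given above, had a higher summed level in the GapmeR samples, and 3 of the 15 tested were higher in edgeR. The interferon-linked genes were lower. Their median ratio was 0.211 and their control means ran from 2.29 to 916 CPM. Acod1, which makes the immunometabolite itaconate, was lowest. Its level was 1.66, 1.32, 1.39 and 0.805 CPM in GapmeR samples 1 to 4 and 33.0 and 42.3 CPM in the controls, a fold of 29.1. Of the 19 other tested genes in a list of the itaconate pathway and the citric acid cycle, 4 were lower and 3 higher with an adjusted p under 0.05 in edgeR, and the median log2 fold change was 0.02. With scaling by library size only, 1 was lower and 9 higher.

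Ifit1bl1, a paralog of the antiviral Ifit genes, had the highest control level of the 109 genes. It was at 129, 66.9, 112 and 57.2 CPM in the GapmeR samples and 829 and 1003 CPM in the controls, a fold of 10.0. The GapmeR samples differed from each other, with samples 1 and 3 higher than samples 2 and 4, and all were far below the controls. Of its 5 paralogs tested, 3 were lower in edgeR and none higher, both with TMM and with library size scaling. Ifit2 fell from a control mean of 1790 ± 248 CPM (SD, n = 2) to a GapmeR mean of 1015 ± 143 CPM (SD, n = 4, as for the other pairs of means below; log2 fold change -0.97 ± 0.13, SE, edgeR adjusted p = 6.2e-05). Ifit3b was at 853 and 860.0 CPM in control and GapmeR means and did not pass the test.

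PYHIN genes of chromosome 1 gave 3 members that lie close together on the same strand. Ifi206 was at 2.60, 1.37, 2.18 and 1.64 CPM in the GapmeR samples and 20.6 and 25.1 CPM in the controls, a fold of 11.7. Ifi214 and Ifi213, chosen after their values were seen, had folds of 5.66 and 4.60, from control means of 14.1 and 4.64 CPM. Their RefSeq promoters (GRCm38.p6, 250 bases before to 50 after the start, all on the minus strand) are shown because the 3 paralogs fell together. The capitals mark a match to a pair of TTTC separated by NN, or its reverse complement, a core of the sites that IRF factors bind.
Ifi206, chr1:173491269-173491568 (-): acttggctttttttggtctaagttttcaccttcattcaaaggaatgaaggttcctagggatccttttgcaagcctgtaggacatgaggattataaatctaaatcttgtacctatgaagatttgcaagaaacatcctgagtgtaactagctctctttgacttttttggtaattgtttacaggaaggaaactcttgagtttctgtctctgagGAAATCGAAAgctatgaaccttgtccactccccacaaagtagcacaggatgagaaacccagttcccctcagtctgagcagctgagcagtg
Ifi214, chr1:173535908-173536207 (-): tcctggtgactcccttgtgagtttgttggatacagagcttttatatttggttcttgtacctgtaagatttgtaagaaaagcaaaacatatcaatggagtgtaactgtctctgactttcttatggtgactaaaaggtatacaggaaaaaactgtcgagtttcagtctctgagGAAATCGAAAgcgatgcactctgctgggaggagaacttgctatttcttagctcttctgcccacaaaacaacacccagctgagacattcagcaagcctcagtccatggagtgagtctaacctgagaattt
Ifi213, chr1:173599223-173599522 (-): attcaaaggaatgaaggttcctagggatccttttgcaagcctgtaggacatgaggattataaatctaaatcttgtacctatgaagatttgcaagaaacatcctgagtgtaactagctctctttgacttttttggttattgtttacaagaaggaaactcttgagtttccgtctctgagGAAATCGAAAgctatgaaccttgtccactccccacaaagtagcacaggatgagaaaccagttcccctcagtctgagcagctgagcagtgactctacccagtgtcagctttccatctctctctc
The match began 40, 79 and 73 bases before the listed starts. The promoters of Ifi206 and Ifi213 were identical at 263 of 266 aligned bases (98.9%), and that of Ifi214 was identical to Ifi206 at 81.9%. Such a match, on either strand, was in 3.49% of all 27025 promoters and in 6 of the 10 listed promoters of the family. The 6 were those of the 3 members and of Ifi205, Mndal and Ifi207. The promoters of Ifi209, Ifi203, Ifi202b and Aim2 held no match. With or without a match, these genes outside the rule were lower in edgeR with TMM. Of the 10 other PYHIN genes tested, 9 were lower in edgeR and none higher, and 8 were lower when scaled by library size only. Ifi209 fell from 94.7 ± 5.75 to 36.8 ± 3.32 CPM (log2 fold change -1.51 ± 0.08, adjusted p = 5.6e-10, edgeR), and Mndal from 117 ± 16.3 to 52.7 ± 2.01 CPM (-1.30 ± 0.08, adjusted p = 2.3e-09, edgeR). Neighbours in this family are close in sequence, and the authors' counting may have split reads between them.

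A promoter with the same kind of match was listed for Ifit1bl1 (plus 1 alternative that is not shown). The match, in capitals, began 104 bases before the start, and a TATAAA followed it at 35 bases before the start.
Ifit1bl1, chr19:34601919-34602218 (-): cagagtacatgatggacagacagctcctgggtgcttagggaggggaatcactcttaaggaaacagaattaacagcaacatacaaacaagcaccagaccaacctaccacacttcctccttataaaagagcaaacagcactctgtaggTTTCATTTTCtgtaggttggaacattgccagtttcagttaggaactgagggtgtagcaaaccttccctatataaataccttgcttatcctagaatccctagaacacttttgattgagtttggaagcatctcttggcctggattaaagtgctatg
Among the 6 listed promoters of the Ifit family 5 held such a match. They included those of Ifit3b and Ifit1bl2, which did not pass the test. The promoter without a match was that of Ifit2, which was lower in edgeR, as given above.

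Chemokine and signalling genes of this group were low as well. Cxcl11, a ligand of CXCR3, the chemokine receptor of activated T cells, was at 3.93, 2.02, 2.71 and 2.00 CPM in the GapmeR samples and 24 and 27.7 CPM in the controls, a fold of 9.70. Of the 14 other chemokine genes tested, 4 were lower and 1 higher in edgeR, and Cxcl10, another ligand of CXCR3, fell from 198 ± 24.6 to 89.4 ± 13.9 CPM (log2 fold change -1.29 ± 0.14, adjusted p = 6.4e-05). Slfn1, a Schlafen gene, was at 0.937, 0.674, 0.826 and 0.386 CPM against 5.33 and 6.22 CPM. Of its 7 paralogs tested, 4 were lower and none higher, and with library size scaling 3 were lower and 1 higher. Il15, a cytokine that sustains natural killer cells, was at 6.05, 5.87, 5.91 and 4.86 CPM against 16.4 and 18.5 CPM. Il18bp, a secreted decoy for interleukin 18, was at 30.5, 23, 29.2 and 25.8 CPM against 97.2 and 102 CPM, and it overlaps Numa1 on the other strand, which was at 216 CPM in the controls and 174 CPM after knockdown. Cd274, which encodes the checkpoint ligand PD-L1, was at 49.6, 44.0, 49.2 and 45.8 CPM against 133 and 162 CPM, and it overlaps Plgrkt on the other strand, which was at 12 CPM in the controls and 18.2 CPM after knockdown.

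MHC class I genes of the Q region, H2-Q6 and H2-Q7, lie side by side on chromosome 17. H2-Q6 was at 89.6, 48.5, 87.7 and 53.0 CPM in the GapmeR samples and 252 and 300 CPM in the controls, a fold of 3.96. H2-Q7 was at 86.6, 59.5, 85.6 and 60.4 CPM against 216 and 244 CPM, a fold of 3.15. In both genes GapmeR samples 1 and 3 were above samples 2 and 4, as in Ifit1bl1. Of the 11 other MHC class I genes tested, 8 were lower in edgeR and none higher under either scaling. H2-K1 fell from 1891 ± 163 to 876 ± 155 CPM (log2 fold change -1.26 ± 0.15, adjusted p = 0.00011) and H2-T23 from 456 ± 15 to 192 ± 16.5 CPM (-1.40 ± 0.08, adjusted p = 1.3e-09, edgeR). Q region genes are close paralogs, so reads may have been shared among them.

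Wider lists of interferon-induced genes held no further member, and more of their genes fell than rose. Of 31 interferon-stimulated antiviral genes, 21 were lower and 2 higher in edgeR with a median log2 fold change of -0.45, and 17 were lower and 4 higher when scaled by library size only. Zbp1, a sensor of Z-form nucleic acids, fell from 244 ± 19.0 to 87.6 ± 14.8 CPM, while Mx2 rose from 255 ± 25.1 to 673 ± 23 CPM (log2 fold change 1.25 ± 0.08, adjusted p = 6.3e-09, edgeR). Of 11 guanylate-binding proteins, which attack vacuoles of intracellular pathogens, 7 were lower and 1 higher. Over all genes of at least 1 CPM in both controls that were not members, 3306 of 11847 were lower and 2505 higher, with a median of -0.06. Members included, 28.6% of the 11956 genes were lower.

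Ms4a4b, Ms4a4c and Ms4a4d, chosen after their values were seen, are neighbours on chromosome 19 and encode membrane proteins with 4 spans. Ms4a4c was at 10.2, 5.77, 8.10 and 5.25 CPM in the GapmeR samples and 32.1 and 39.8 CPM in the controls. Of the 6 other Ms4a genes tested, Ms4a6d was lower in edgeR (159 ± 11.4 to 93.2 ± 12.4 CPM, adjusted p = 1.9e-05), the other 5 did not pass with TMM, and 2 passed as higher with library size scaling.

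Genes of the natural killer complex on chromosome 6 gave 5 members with a median ratio of 0.253. The complex encodes lectin-like receptors of natural killer cells, but not all 5 members encode such a receptor. They were Klra4, Klra1, Styk1, and Klra13-ps and Gm15854, which are annotated as pseudogenes. All but Klra4 were chosen after their values were seen. Klra4, an Ly49 receptor gene, was at 35.5, 43.2, 29.8 and 37.3 CPM in the GapmeR samples and 148 and 140 CPM in the controls, a fold of 3.95. GapmeR 2 was its highest treated sample and GapmeR 3 its lowest. Klra1 and Klra13-ps, chosen after their values were seen, had folds of 3.53 and 4.07. Among the 4 other Klra genes tested, Klra2 and Klra17 were higher in edgeR under either scaling, both at low levels. Klra2 rose from 0.429 ± 0.0701 to 1.01 ± 0.197 CPM (log2 fold change 1.09 ± 0.34, adjusted p = 0.015, edgeR).

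Adhesion, matrix and secreted proteins gave 14 members with a median ratio of 0.222. Crisp1, a secreted protein of the CAP superfamily known from the epididymis, was at 1.66, 1.13, 1.65 and 1.03 CPM in the GapmeR samples and 21.3 and 25 CPM in the controls, a fold of 16.9. Pi15, another CAP protein, was at 0.151, 0.0808, 0.198 and 0.0966 CPM against 1.23 and 1.31 CPM. Of the other 4 CAP genes tested, 3 were higher and 1 lower in edgeR, and Pi16 rose from 0.0146 ± 0.0206 to 1.34 ± 0.559 CPM (adjusted p = 1.5e-05). Coch, an extracellular matrix protein of the inner ear with von Willebrand A domains, was at 1.94, 2.05, 1.75 and 1.38 CPM against 23.7 and 26.5 CPM, a fold of 14.1. Tmprss11b, a membrane serine protease, was at 0.968, 1.37, 0.694 and 1.13 CPM against 9.77 and 9.51 CPM. The 4 GapmeR samples of each gene were far below both controls.

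Selp encodes P-selectin, which tethers leukocytes to activated endothelium. It was at 62.0, 54.4, 58.7 and 59.9 CPM in the GapmeR samples and 179 and 182 CPM in the controls, a fold of 3.07, with little spread in either group. Of the 17 other leukocyte adhesion genes tested, 12 were lower and 1 higher in edgeR with a median log2 fold change of -0.41, and 9 were lower and 2 higher when scaled by library size only. Vcam1, a ligand of leukocyte integrins, fell from 31.3 ± 0.782 to 15 ± 1.35 CPM (log2 fold change -1.21 ± 0.10, adjusted p = 4.0e-08, edgeR). Cd47 fell from 282 ± 14.2 to 123 ± 7.0 CPM (-1.35 ± 0.07, adjusted p = 3.5e-10, edgeR). Aoc3, an amine oxidase on vessels, rose from 0.850 ± 0.00569 to 18.7 ± 2.12 CPM (4.30 ± 0.17, adjusted p = 1.3e-11, edgeR).

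Matrix metalloproteinases, which cleave extracellular matrix proteins, gave 2 members of the gene cluster on chromosome 9. Mmp13, collagenase 3, was at 3.27, 2.72, 2.81 and 3.41 CPM in the GapmeR samples and 13.9 and 14.2 CPM in the controls, a fold of 4.61. Mmp10, stromelysin 2, was at 0.393, 0.0808, 0.264 and 0.161 CPM against 1.54 and 1.69 CPM, a fold of 7.19. Among the 17 other tested genes with an Mmp symbol, 1 was lower and 5 higher in edgeR under either scaling. In the list of matrix metalloproteinases, a set that differs in part, 17 other genes were tested. Of these 4 were lower and 4 higher, and 3 were lower and 4 higher with library size scaling. Mmp3, which lies between them in the cluster, rose from 10.2 ± 0.451 to 19.5 ± 1.11 CPM (log2 fold change 0.78 ± 0.10, adjusted p = 7.2e-06, edgeR). Promoters of the 2 members are shown with matches to TGANTCA, the motif that AP-1 factors bind, in capitals (RefSeq, GRCm38.p6, plus strand).
Mmp13, chr9:7272264-7272563 (+): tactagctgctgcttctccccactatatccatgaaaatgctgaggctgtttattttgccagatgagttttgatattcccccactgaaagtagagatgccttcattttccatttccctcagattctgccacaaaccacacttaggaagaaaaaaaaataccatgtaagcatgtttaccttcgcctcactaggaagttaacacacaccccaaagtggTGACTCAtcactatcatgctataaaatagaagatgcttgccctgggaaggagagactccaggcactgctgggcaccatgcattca
Mmp10, chr9:7502092-7502391 (+): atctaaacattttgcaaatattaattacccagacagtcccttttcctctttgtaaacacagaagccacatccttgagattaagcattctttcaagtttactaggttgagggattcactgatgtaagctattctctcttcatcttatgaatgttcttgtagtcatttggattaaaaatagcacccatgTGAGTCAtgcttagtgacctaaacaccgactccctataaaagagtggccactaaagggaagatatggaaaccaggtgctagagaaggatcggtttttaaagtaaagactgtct
The match began 35 bases before the start in Mmp13 and 63 bases before it in Mmp10. It was in 7.93% of all 27025 promoters. The promoters of the other Mmp genes, Mmp3 included, were not compared, so the match is not shown to be particular to the 2 members. The Mmp13 promoter also held a match to the TTTC pair described above, not in capitals, which began 146 bases before the start.

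Cytoskeletal and structural genes gave 9 members. Krt16, a type I keratin of stressed epithelium, was at 4.02, 3.34, 3.67 and 2.86 CPM in the GapmeR samples and 44.9 and 51.2 CPM in the controls, a fold of 13.8. The epithelial markers were near 0 in both groups, as given above. Of the 5 other type I keratin genes tested, Krt14 was lower in edgeR (0.251 ± 0.0166 to 0.0373 ± 0.0111 CPM, adjusted p = 0.0035) and 4 did not pass the test. Basp1, a membrane-bound protein of growing neurites, was at 15.4, 14.3, 20.3 and 10.8 CPM against 84.1 and 88.2 CPM, a fold of 5.67.

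Transcription factors and cofactors gave 12 members with a median ratio of 0.194. Hopx, a homeodomain protein that does not bind DNA, was at 1.75, 1.78, 1.75 and 1.67 CPM in the GapmeR samples, the closest agreement of the 109 genes, and 18.9 and 23.5 CPM in the controls, a fold of 12.2. Prdm9, a histone methyltransferase known for placing meiotic recombination, was at 5.84, 6.95, 5.75 and 5.41 CPM against 34.9 and 48.5 CPM. Of the 9 other Prdm genes tested, 6 were higher and 1 lower in edgeR under either scaling. Prdm1, a repressor in lymphocytes, was the lower gene (3.26 ± 0.350 to 1.27 ± 0.192 CPM, adjusted p = 2.8e-05). Tbx2, a T-box repressor, was at 24.2, 18.4, 26.4 and 19.4 CPM against 120 and 141 CPM, a fold of 5.91, while 3 of the 4 other T-box genes tested were higher in edgeR under either scaling, each from under 0.2 CPM in the controls.

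Dach1, a transcriptional cofactor of developing vessels and limbs, was at 2.54, 1.91, 2.68 and 2.35 CPM in the GapmeR samples and 12 and 15.5 CPM in the controls. The orphan nuclear receptor Nr4a1, an immediate early gene, was at 29.4, 35.8, 31.9 and 39.1 CPM against 120 and 125 CPM, a fold of 3.60. Nr4a3 was also a member, and the one other gene of the family, Nr4a2, fell from 10.3 ± 1.46 to 3.93 ± 0.739 CPM (log2 fold change -1.54 ± 0.16, adjusted p = 1.9e-06, edgeR).

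Signalling proteins gave 12 members with a median ratio of 0.267 and control means of 1.23 to 57.6 CPM. They included Angpt2, the angiopoietin that competes at the receptor Tie2, the Wnt inhibitors Dkk2 and Nkd2, the BMP pseudoreceptor Bambi and the stress gene Gadd45b, all chosen after their values were seen. Angpt2 was at 16.1, 11.2, 14 and 11.2 CPM in the GapmeR samples and 38.9 and 47.6 CPM in the controls, and it lies opposite Mcph1, which was at 9.82 and 9.87 CPM in the control and GapmeR means. The receptor genes Tek and Tie1 were at 86.7 and 577 CPM in the control means and did not pass the test with TMM, and 1 of the 2 passed as higher with library size scaling. Of 30 other BMP and TGF-beta genes, 10 were lower and none higher in edgeR, and 8 were lower and 2 higher with library size scaling.

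Genes of metabolism, transport and organelles gave 14 members. Lamp2, a membrane protein of lysosomes, had the second highest control level of the 109 genes. It was at 82.6, 93.2, 75.8 and 77.7 CPM in the GapmeR samples and 323 and 348 CPM in the controls, a fold of 4.07. Lamp1, its paralog, fell from 451 ± 4.62 to 369 ± 5.25 CPM (log2 fold change -0.43 ± 0.07, adjusted p = 8.7e-05, edgeR), and Cd68 of the same family, also a macrophage marker, rose from 82.5 ± 1.18 to 123 ± 4.52 CPM (0.43 ± 0.07, adjusted p = 0.00015, edgeR). Xdh, which oxidizes purines to uric acid, was at 11.7, 7.81, 14.2 and 10.4 CPM against 72.4 and 85.1 CPM, a fold of 7.14. Akr1c18, an enzyme that inactivates progesterone, was at 1.33, 0.835, 1.32 and 0.676 CPM against 10.7 and 12.6 CPM. Its paralogs Akr1c13 and Akr1c14 were lower by 0.32 and 0.40 on the log2 scale in edgeR, and neither passed with library size scaling.

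Cytochrome P450 genes gave 2 members. Cyp3a13, of the main drug-metabolizing subfamily, was at 0.998, 0.674, 0.694 and 0.547 CPM in the GapmeR samples and 4.96 and 5.81 CPM in the controls. Cyp1a1, the main target of the aryl hydrocarbon receptor, was at 0.998, 1.43, 1.02 and 2.03 CPM against 4.27 and 4.14 CPM, and its GapmeR samples varied among themselves more than the controls. Of the 17 other cytochrome P450 and aldehyde dehydrogenase genes tested, 2 were lower and 8 higher in edgeR. Cyp1b1, 1 of the 2 lower genes, fell from 19.4 ± 0.262 to 8.19 ± 0.962 CPM (adjusted p = 5.5e-08, edgeR). The 1 other Cyp3a gene tested, Cyp3a57, was higher in edgeR under either scaling (log2 fold change 6.04 with TMM). St3gal5, which makes the ganglioside GM3, was at 18.8, 18.6, 19.5 and 16.2 CPM against 51.0 and 60.4 CPM.

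Genes with histone symbols gave 5 members, of which Hist1h2al is annotated as a processed pseudogene. Hist1h2bc was at 4.96, 5.44, 3.90 and 3.73 CPM in the GapmeR samples and 23.6 and 29.8 CPM in the controls, a fold of 5.92. Of the 42 other histone genes tested, 8 were lower and none higher in edgeR, and with library size scaling 1 passed as higher. Hist1h1c, a linker histone gene just outside the rule, fell from 41.3 ± 3.46 to 14.1 ± 1.80 CPM (log2 fold change -1.70 ± 0.10, adjusted p = 1.1e-09, edgeR). Most histone genes of the cell cycle make RNA without a poly(A) tail, and these libraries were made after ribosomal RNA depletion. A further 20 members had no role assigned, mostly pseudogenes, non-coding RNAs and genes known by a number. Among those over 5 CPM in the controls, 8430408G22Rik, the protein-coding gene Depp1 in RefSeq, had the highest fold. It was at 1.72, 2.69, 1.88 and 2.51 CPM against 17.7 and 19.4 CPM.

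**Figure D2:**
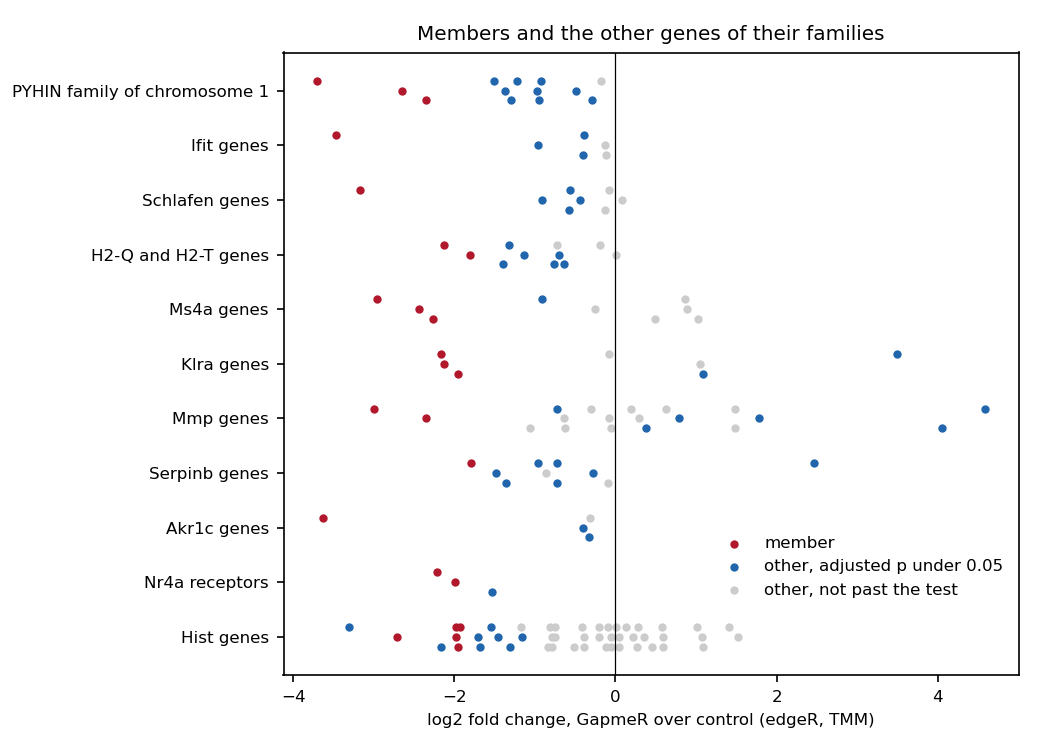
Log2 fold change (GapmeR over control, edgeR with TMM, x axis) of members (red) and of the other tested genes in 11 families, blue where the adjusted p was under 0.05 and grey otherwise. The PYHIN, Ifit, H2 and Serpinb genes lie mostly left of 0, while the Klra and Mmp families hold members left of 0 and other genes right of 0.

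Families differed in how far their other genes followed the members. Most of the families drawn were formed after the values were seen. With TMM some other genes fell and none rose in the PYHIN, Ifit, Schlafen, H2-Q and H2-T, Ms4a, Akr1c, Nr4a and histone families. With library size scaling none fell in the Akr1c genes, and 1 Schlafen, 2 Ms4a and 1 histone gene rose. With TMM the fall took in 1 of 6 other Ms4a and 8 of 42 other histone genes, beside 20% of all genes tested. As in the Klra and T-box genes, others rose and none fell under either scaling in 4 more families. These were 2 of 2 other Dkk, 1 of 1 Cyp3a, 3 of 7 Tmprss and 2 of 6 Nlrp genes. Of the 9 other Serpinb genes, 6 were lower and 1 higher (5 and 1 with library size scaling). Has2, a hyaluronan synthase, was at 2.81, 2.56, 2.58 and 2.86 CPM against 7.76 and 8.93 CPM, while its paralog Has3 rose from 0.945 ± 0.273 to 5.22 ± 0.161 CPM (log2 fold change 2.30 ± 0.21, adjusted p = 1.9e-07, edgeR). TMM lowered log2 fold changes by 0.15 at the median relative to library size scaling, and of all genes tested 20% were lower and 25.4% higher with TMM against 11.7% and 33.5% with library size only. Lower genes made up 44.1% and 25.9% of the calls.

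**Figure D3:**
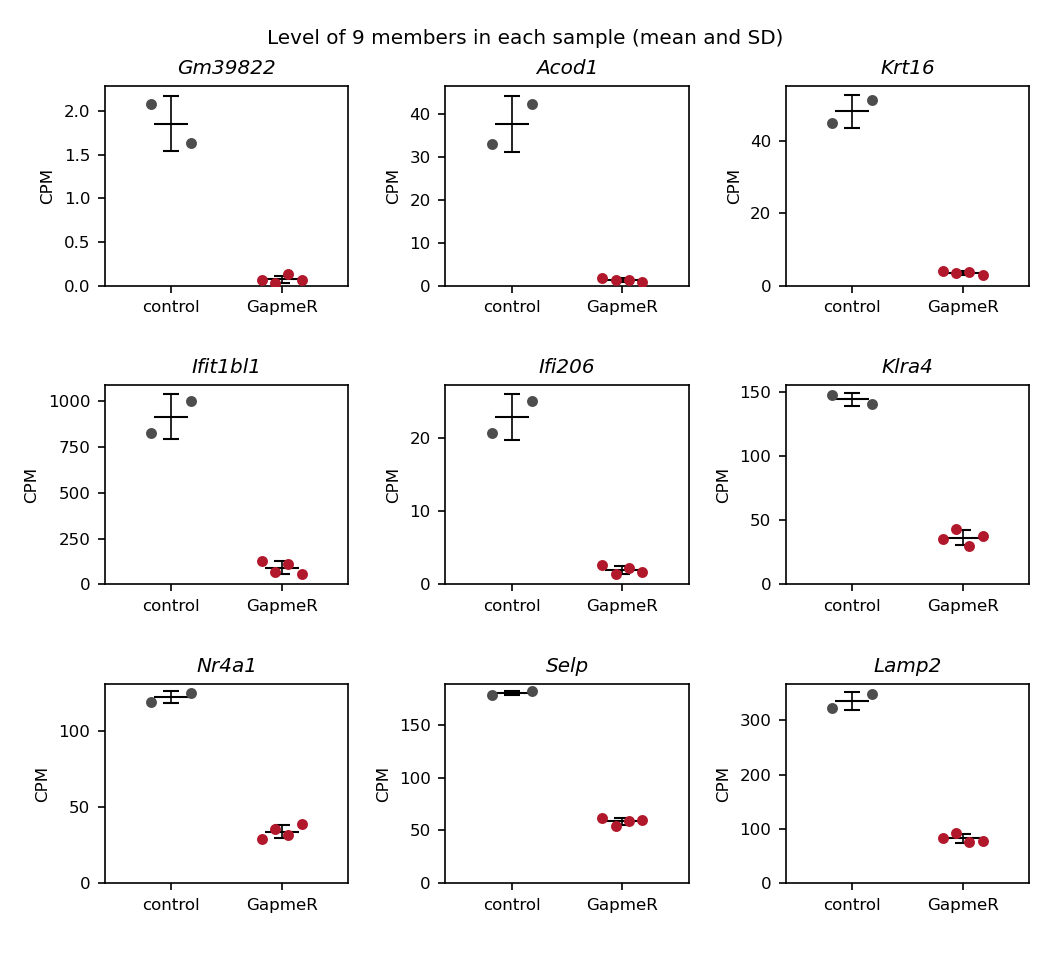
Level in CPM (y axis, from 0) of 9 members in each negative control (grey, n = 2) and GapmeR sample (red, n = 4), with the mean as a bar and the SD as whiskers. In each panel the GapmeR samples lie below both controls, from Gm39822 at 0.0710 CPM to Ifit1bl1 at 91.3 CPM in the GapmeR mean.

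Within the GapmeR group, the members did not vary alike. GapmeR 1 was the highest of the 4 samples for 51 of the 109 members (46.8%), beside 18.1% of the 11956 genes, and for 17 of the 18 interferon-linked members. The median ratio to the control mean of these 18 was 0.258, 0.162, 0.238 and 0.163 in GapmeR samples 1 to 4. For the 5 genes of the natural killer complex the medians were 0.223, 0.306, 0.207 and 0.290, so that samples 1 and 3 were lower and samples 2 and 4 higher. Gm39822 itself had 1 to 4 counts in these samples, too few to rank them.

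**Figure D4:**
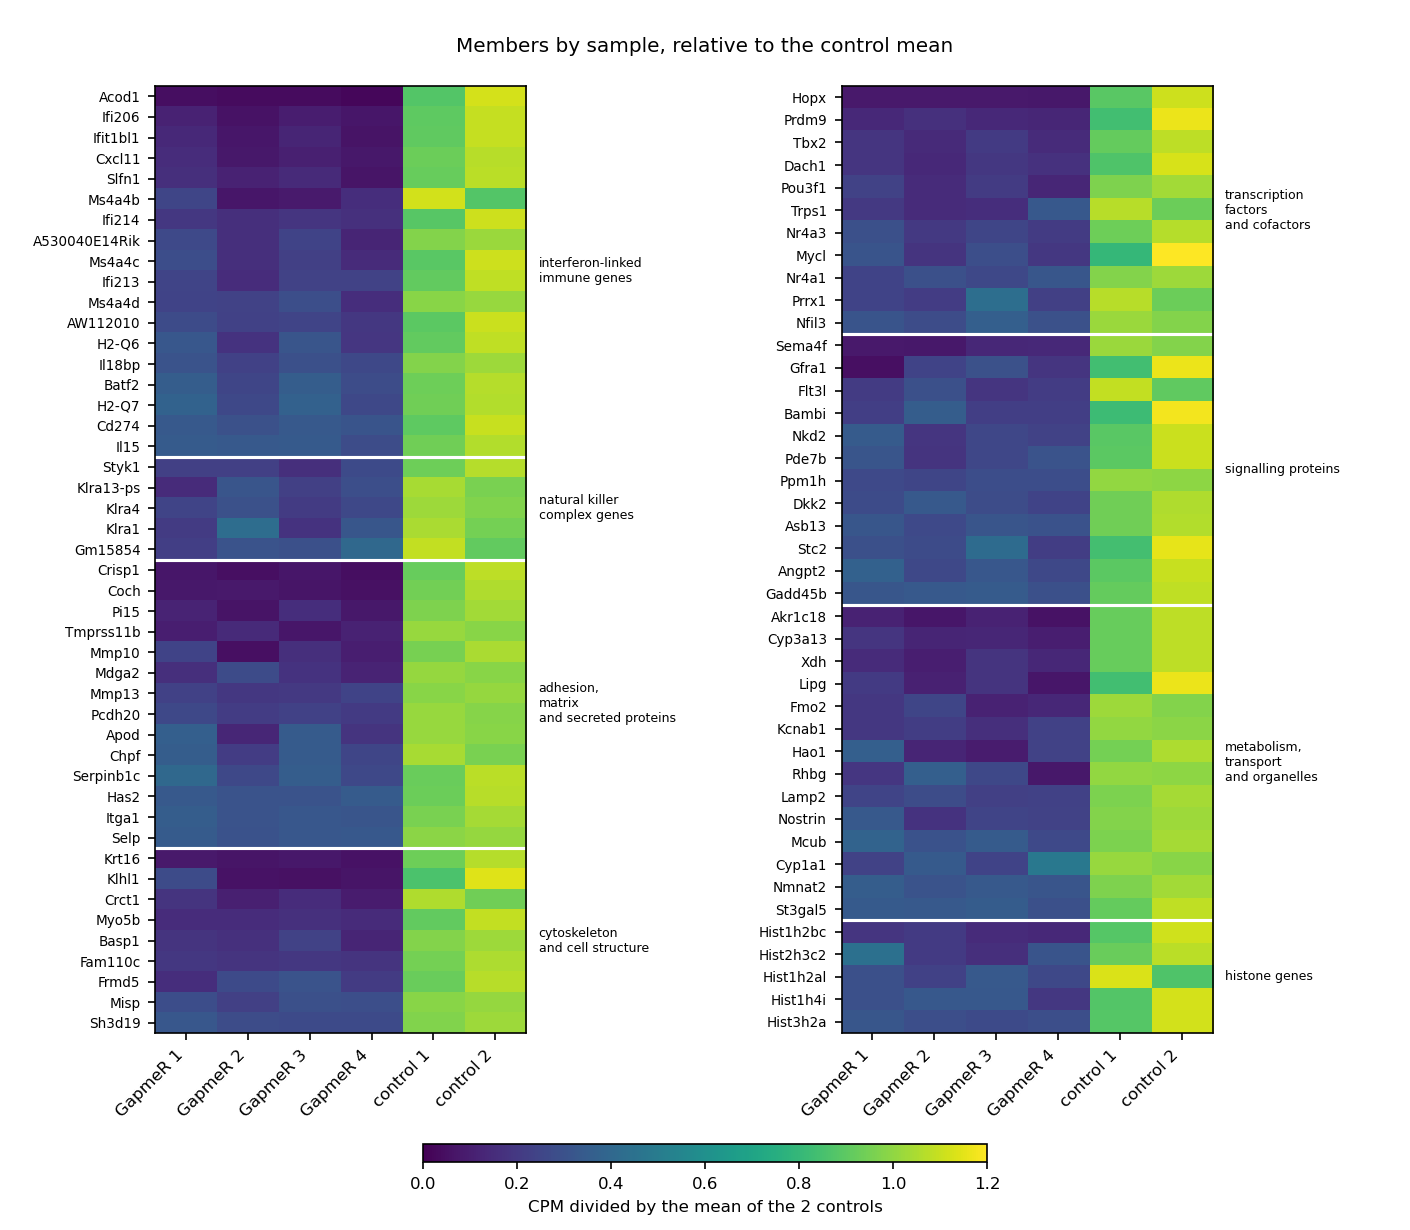
Level of 88 members with an assigned role in each sample (columns), as CPM divided by the mean of the 2 controls (colour, 0 to 1.2), grouped by role and ordered within a role by ratio. The GapmeR columns are dark for every gene, and in the interferon-linked block GapmeR 1 (median 0.258) is lighter than GapmeR 2 (median 0.162).

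Features that the rule did not use were compared as a description. Among the 109 genes 92 were protein coding, 10 were long non-coding RNAs (9.17% beside 2.84% of the 11956 genes) and 6 were pseudogenes (5.51% beside 2.38%). Over all 18234 genes tested these shares were 7.96% and 7.72%. The median control level was 8.34 CPM for the members and 27.8 CPM for the 11956 genes, so the sets differ in level too. For each gene the Ensembl canonical transcript was used. Its median length was 2648 bases beside 3402 over the 11956 genes, and its median number of exons was 7 beside 9. Its median GC content was 46.4% beside 50.2%, and the median span of the gene was 22.2 kb beside 25.2 kb. These values came from the GENCODE annotation for 108 members and 11885 of the genes. A RefSeq promoter was listed for 76 of the 109 members, under 80%, so a comparison of motifs over the members is void and its values are not given.

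**Figure D5:**
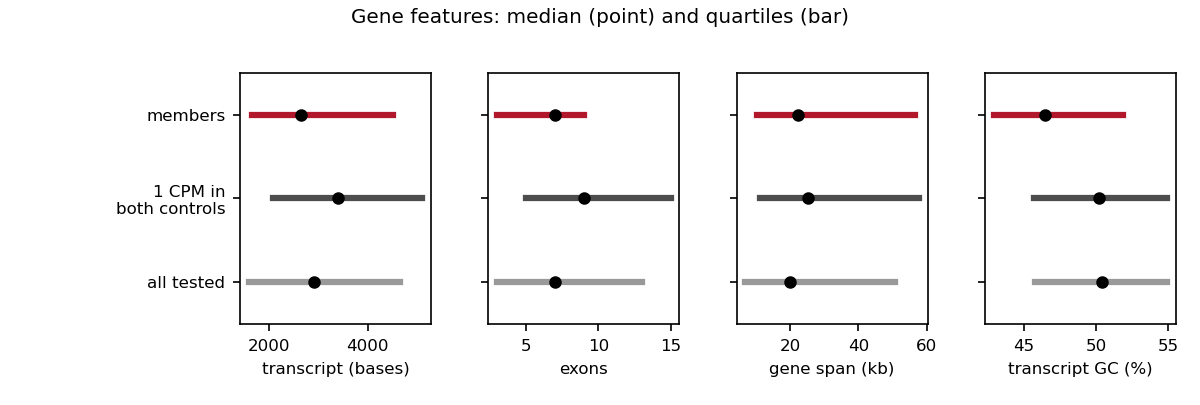
Median (point) and quartiles (bar) of transcript length (bases), exon number, gene span (kb) and transcript GC content (%) for the 109 members, the 11956 genes of at least 1 CPM in both controls and all 18234 genes tested. The members have a median GC content of 46.4%, under the 50.2% of the genes expressed in the controls.

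Some members were neighbours. Of 108 members with a position, 18 lay within 100 kb of another member, in 8 clusters. These were the PYHIN and Ms4a4 groups of 3 and the pairs H2-Q6 and H2-Q7, Gm15854 and Klra4, Klra13-ps and Klra1, Hist2h3c2 and Gm20632, Gm29865 and Dkk2, and Serpinb1c and Gm11382. None of these pairs overlapped. Of 241 other expressed genes within 100 kb of a member, 41.1% were lower and 16.6% higher in edgeR. Over all 11777 expressed genes with a position outside the rule, the 241 included, the shares were 28.0% and 21.2%. The 241 held paralogs of members, such as Ifi209 and H2-Q4, and genes that overlap a member, such as Tgtp2. The part of these in the shares was not tested. Of the 109 members, 14 overlapped a gene of at least 1 CPM in the controls, and without strand the reads of both cannot be told apart. Olfr56, an olfactory receptor gene at 31.9 and 37.8 CPM in the controls, overlaps the interferon-inducible GTPase genes Ifi47 and Tgtp2, which were at 196 and 162 CPM in the control means.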

How the data were processed

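The authors deposited raw counts of reads on Ensembl genes, as whole numbers, for 6 labelled samples of bEND.3 cells (4 GapmeR, 2 negative control). Ribosomal RNA was depleted and paired reads were trimmed and aligned to mm10. The submitters' processing notes name Trimmomatic 0.36, STAR 2.5.2b and Subread 1.5.2. The strand setting of the counting is not given in the sources used here. The table holds 1 further column of counts that matched no labelled sample and was not used, and the study gives 4 samples for each group.

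The members and the gene lists were chosen with earlier results of these data known. CPM used each sample's total of 29261988 to 37117934 counts. The rule was applied to all 6 samples, and the members' levels were not tested. The 18234 genes that reached 5 counts in 2 or more samples were tested with edgeR 4.0.16 (R 4.3.3, TMM, robust quasi-likelihood, Benjamini-Hochberg adjustment, adjusted p under 0.05), and these p-values are given for genes outside the rule only. SEs of log2 fold changes are their size over the root of F. The fit was tested on simulated data.

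Genes were named as the target, the 20 members with the lowest ratio at 5 CPM or more in the controls, the 10 with the highest control level, up to 4 members of each list, 3 genes on either side of the threshold and up to 3 other genes of a list or family. Names chosen after their values were seen are marked, and 1 member that the rule names is not reported here. Families other than by symbol stem, and roles, were formed after the values were seen. Positions and promoters came from RefSeq (GRCm38.p6), other features from GENCODE by Ensembl identifier. Same-numbered samples' deviations from the group means correlated at -0.0218 and 0.0645, and with 2 pairs the numbers were not taken to pair samples. The alternatives were DESeq2 1.42.0, other scalings, filters and thresholds, the replicate block and each sample left out in turn.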

Additional observations from a re-analysis of the deposited data

Results flagged for a closer look

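Of 37 named members tested for a sample far from the others among the 4 GapmeR samples, 2 were flagged, and chance flags about 1 in 20. Il15 was at 4.86 CPM in GapmeR 4 and at 5.87 to 6.05 CPM in the other three. Gm11382 was at 0.674 CPM in GapmeR 2 and at 0.418 to 0.430 CPM in the other three, and it overlaps Serpinb6b. The cause was not tested for either gene.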

How the results depend on the processing

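Of 439 alternative values of the named members' log2 fold changes, none changed sign, 423 moved by less than the spread between replicates, and the value nearest to 0 was -1.55. The members were chosen on these same samples, so a change of sign was hardly possible. TMM and DESeq2 scaling lowered the GapmeR levels against the controls, so all 109 genes had to stay under either. The rule gave 128 genes with TMM or DESeq2 scaling (all 109 kept in both), 63 with at least 5 CPM in both controls, 65 where every GapmeR sample was 3 times below the lower control, 63 at 4 times lower and 274 at 2 times lower. With each sample left out it gave 98 to 120 genes, the lowest without control 2. Over all genes, 3643 were lower in edgeR, 2135 with library size only and 1930 to 3949 with a sample left out (2262 without control 1 and 1930 without control 2), while 4625 were higher and 3302 to 4800 with a sample left out. Of the listed genes outside the rule, 126 were lower and 88 higher, and with a sample left out 87 to 129 and 58 to 96, the fewest higher without control 2. With library size only the balance turned, with 95 lower and 110 higher. The cause of these changes was not tested. With the replicate block on the 4 same-numbered samples 3268 were lower and 4530 higher. With 2 controls, leaving out either leaves 1, which is assumed to vary as the GapmeR samples do, and genes near 1 CPM rest on about 30 counts.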
